A study of Mus musculus with 21 samples.

Results

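The complement genes described here are 9 components and regulators outside the C1q complex, chosen by symbol, out of 54123 genes with values in the series. They comprise C3 and Cfb of the central and alternative pathway, C4b and C2 of the classical pathway, the fluid-phase regulator Cfi, the anaphylatoxin receptors C3ar1 and C5ar1, and the membrane regulators Cd55 and Cd59a. All 9 genes were found. Another 44 complement genes, C1q included, were listed for comparison.

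RNA-Seq was performed on neutrophils (PMNs, labelled as taken from blood) and on tubular epithelial cells of the kidney (TECs) of wildtype mice, isolated 24 hours after surgery. The mice of the study were male C57BL/6 mice 8 to 12 weeks old, and every animal went through surgery. In the IRI (ischemia-reperfusion injury) groups the vessels of both kidneys were clamped and then reopened, and in the sham groups no clamp was placed. RIPC (remote ischemic preconditioning), which consisted of repeated inflation of a cuff around the hind limb shortly before surgery, was given to the RIPC groups and not to the control groups. The study describes a control procedure in which the cuff was inflated to a low pressure that left the limb without ischemia. PMNs gave 2 libraries in the sham control, 3 in the sham RIPC, 2 in the IRI control and 3 in the IRI RIPC group. TECs gave 3 libraries in the sham control, 3 in the sham RIPC, 2 in the IRI control and 3 in the IRI RIPC group. The study describes the libraries as biological replicates, and the labels do not tie them to single animals. The tests thus set differences of group means against the spread between these libraries.

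Complement is a cascade of plasma proteins in which C4b and C2 (classical and lectin pathways) or C3 and factor B (alternative pathway) form the enzymes that split C3 and C5. The split releases the anaphylatoxins C3a and C5a, which act on the receptors C3ar1 and C5ar1 of myeloid cells. Factor I (Cfi) degrades active C3b and C4b, CD55 dissociates the convertases on the cell surface, and CD59 blocks the assembly of the membrane attack complex. Much of the circulating complement comes from the liver, but tubular epithelium and leukocytes also make components of their own, and the alternative pathway is known to take part in ischemic injury of the tubules.

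Levels are given as CPM (estimated reads scaled to library size, TMM-scaled over all 21 libraries), and as TPM (transcripts scaled to length and library size) where genes are compared with each other. Between 20881334 and 51624602 estimated reads per library entered. Where a gene had no reads, up to 3 reads could have been missed, which equals 0.0748 to 0.156 CPM depending on the library. That limit reflects counting error alone, because PCR copies were not marked by molecular identifiers. Differences between groups were tested by quasi-likelihood F tests in edgeR, with Benjamini-Hochberg adjustment over all genes tested and a threshold of 0.05. The biological coefficient of variation between libraries of a group was 1.54 in TECs and 1.65 in PMNs.

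The cell type labels were checked against markers. The 12 neutrophil markers summed to 6480 to 43574 CPM in PMNs and to 1.82 to 168 CPM in TECs, and Ly6g, a defining neutrophil marker, was at 0 reads in every TEC library after sham surgery. The 12 proximal tubule markers summed to between 2959 and 20197 CPM in TECs. PMN libraries also held tubular and macrophage transcripts. In PMNs, the proximal tubule markers summed to 1360 to 12209 CPM after sham surgery and to 642 to 1029 CPM after IRI, and Kap, a kidney androgen-regulated protein of the proximal tubule, reached 7772 CPM in a sham library. The 12 monocyte and macrophage markers summed to 6156 to 23208 CPM in PMNs after sham surgery and to 11910 to 17922 CPM after IRI. Of these markers, 11 of 12 were above 3 reads in every library of either surgery. Adgre1, a marker of this list, was at 71.8 to 573 CPM in PMNs after sham surgery and at 8.14 to 112 CPM after IRI. For Cd68, also of this list, the range after IRI lay within the range after sham surgery. The 3 C1q chains, which macrophages make, summed to 2392 to 7384 CPM in PMNs after sham surgery and to 198 to 1165 CPM after IRI, against at most 28.9 CPM in TECs. The sum over the neutrophil markers was 6480 to 30967 CPM after sham surgery and 22584 to 43574 CPM after IRI. A share of these transcripts in the PMN libraries therefore moved with surgery, and in bulk samples fewer cells of a type and less RNA per cell cannot be told apart.

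Genomic context was taken from the Gencode M21 annotation of GRCm38. C2 (chromosome 17, 34862604 to 34898265) and Cfb (chromosome 17, 34856374 to 34862518) lay end to end on the minus strand, 86 bases apart, beside C4b (chromosome 17, 34728380 to 34743882) in the major histocompatibility region, while C3 lay elsewhere on that chromosome (57203970 to 57228136, minus strand). Cfi was on chromosome 3 (129835884 to 129875332), C3ar1 on chromosome 6 (122847138 to 122856161), C5ar1 on chromosome 7 (16246743 to 16259540), Cd55 on chromosome 1 (130439027 to 130462744) and Cd59a on chromosome 2 (104095801 to 104115354). All 9 were protein-coding. Of the 31-base stretches in the transcripts of C4b, 48.3% also occurred in C4a, its near-identical neighbour, and of those of Cfb 75.5% occurred in Gm20547, a read-through model over Cfb and C2. Stretches of that length were shared by Cd55 with Cd55b in 11.2% and by Cd59a with Cd59b in 8.23%. Reads of C4b and C4a could thus be split between them, and C4b values are uncertain.

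RefSeq promoters of build GRCm38.p6 were at hand for 5 of the 9 genes, namely C3, C3ar1, C5ar1, Cd55 and Cd59a. The 250 bases before the start of C3 and of C3ar1 are shown because the libraries of PMNs lay above those of TECs after IRI for both genes, while the windows differed in the motif letters they held. Capitals mark matches on either strand to NF-kB letters (GGGA and CC with any 4 bases between them) or C/EBP letters (TTGC and AA with any 2 bases between them). The C3 window was chr17:57228137-57228386 and the C3ar1 window chr6:122856158-122856407, both on the minus strand and printed 5′ to 3′, and the latter overlapped the Gencode gene model by 4 bases.
C3: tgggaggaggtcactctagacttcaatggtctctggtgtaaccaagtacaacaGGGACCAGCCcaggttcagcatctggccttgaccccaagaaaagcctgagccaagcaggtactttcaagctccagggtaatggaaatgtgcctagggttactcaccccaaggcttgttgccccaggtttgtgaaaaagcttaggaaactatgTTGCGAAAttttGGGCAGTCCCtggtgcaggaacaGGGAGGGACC
C3ar1: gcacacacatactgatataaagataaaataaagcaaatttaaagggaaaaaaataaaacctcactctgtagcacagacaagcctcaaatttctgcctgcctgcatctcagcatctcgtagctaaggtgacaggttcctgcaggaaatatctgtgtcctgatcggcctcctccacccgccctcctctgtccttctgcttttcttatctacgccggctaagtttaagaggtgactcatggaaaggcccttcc

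The C3 window held 3 matches to the NF-kB letters, the nearest ending at the last base before the start, and 1 match to the C/EBP letters from base 45 to base 38 before it. The Cd55 window held 1 NF-kB match and the Cd59a window 1 match to interferon-response letters (TTTC, any 2 bases, TTTC), and the windows of C3ar1 and C5ar1 held none of the 4 motifs searched. The C5ar1 window was chr7:16259339-16259588 on the minus strand, and the Gencode gene model reached base 16259540. Most of that window thus lay inside the gene model. No window matched STAT letters (TTC, any 3 bases, GAA). Among 32851 promoters of the same length, 17.6% held the NF-kB, 9.56% the C/EBP, 2.98% the interferon-response and 7.02% the STAT letters, on either strand. A match describes letters only.

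The receptor genes separated the cell types, and C5ar1 was the member with the highest level in PMNs (317 ± 231 TPM, SD, n = 10). C5ar1 encodes the receptor for C5a, which drives neutrophil chemotaxis and degranulation. In PMNs after sham surgery it stood at 619.7 and 336 CPM without RIPC and at 413, 309 and 171 CPM with RIPC. After IRI it stood at 1192 and 1329 CPM without RIPC and at 2004, 2329.9 and 1438 CPM with RIPC. All 5 PMN libraries after IRI lay above all 5 after sham surgery. In TECs, C5ar1 was between 0 and 2.25 CPM, with a median of 0 CPM over 11 libraries and at most 51 reads in any of them. The mean of C5ar1 was 697-fold higher in PMNs than in TECs after sham surgery and 6380-fold higher after IRI, where all 5 TEC libraries together held 30 reads.

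C3ar1, the receptor for C3a, was between 11.0 and 99.0 CPM in PMNs. It measured 34.8 and 62.7 CPM in the sham control group, 73.2, 99.0 and 16.2 CPM with RIPC, 11.0 and 46.3 CPM in the IRI control group and 66.5, 73.5 and 27.1 CPM with RIPC. In TECs it was at 0 without RIPC and at 3.38, 0.0758 and 0 CPM with RIPC after sham surgery, and at no more than 0.693 CPM after IRI. C3ar1 exceeded 3 reads in all 10 PMN libraries and in 3 of 11 TEC libraries, and no TEC library reached the lowest PMN library.

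Both receptors were higher in PMNs than in TECs under either surgery, and they were the only members called in these comparisons. The log2 fold change of C5ar1 was 9.60 ± 1.39 (SE) after sham surgery, with an adjusted p of 0.000377 by edgeR. After IRI the adjusted p of C5ar1 was 0.000361 by edgeR. In the IRI control groups alone, where both TEC libraries had no reads, C5ar1 was at least 9814-fold higher in PMNs, taken against 3 reads per library. C3ar1 was higher by 9.49 ± 1.53 (SE) on the log2 scale after sham surgery (adjusted p = 0.00132 by edgeR), which in the control groups alone is at least 469-fold. After IRI C3ar1 was higher by 7.72 ± 1.63 (SE) on the log2 scale (adjusted p = 0.0126 by edgeR), and this call was lost without replicate 1 (adjusted p = 0.0675) or replicate 2 (adjusted p = 0.0764) of the TEC IRI control group by edgeR. Of all genes tested, 2.62% were called between PMNs and TECs after sham surgery and 2.67% after IRI, 1.49% as higher in PMNs under either surgery, and 2 of 9 members were called as higher in each. In the fit of both cell types the PMN libraries, where both receptors were high, met the filter on low counts. Both also passed it in the fit of TECs alone, with C5ar1 above 3 reads in 5 and C3ar1 in 3 of 11 libraries.

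**Figure D1:**
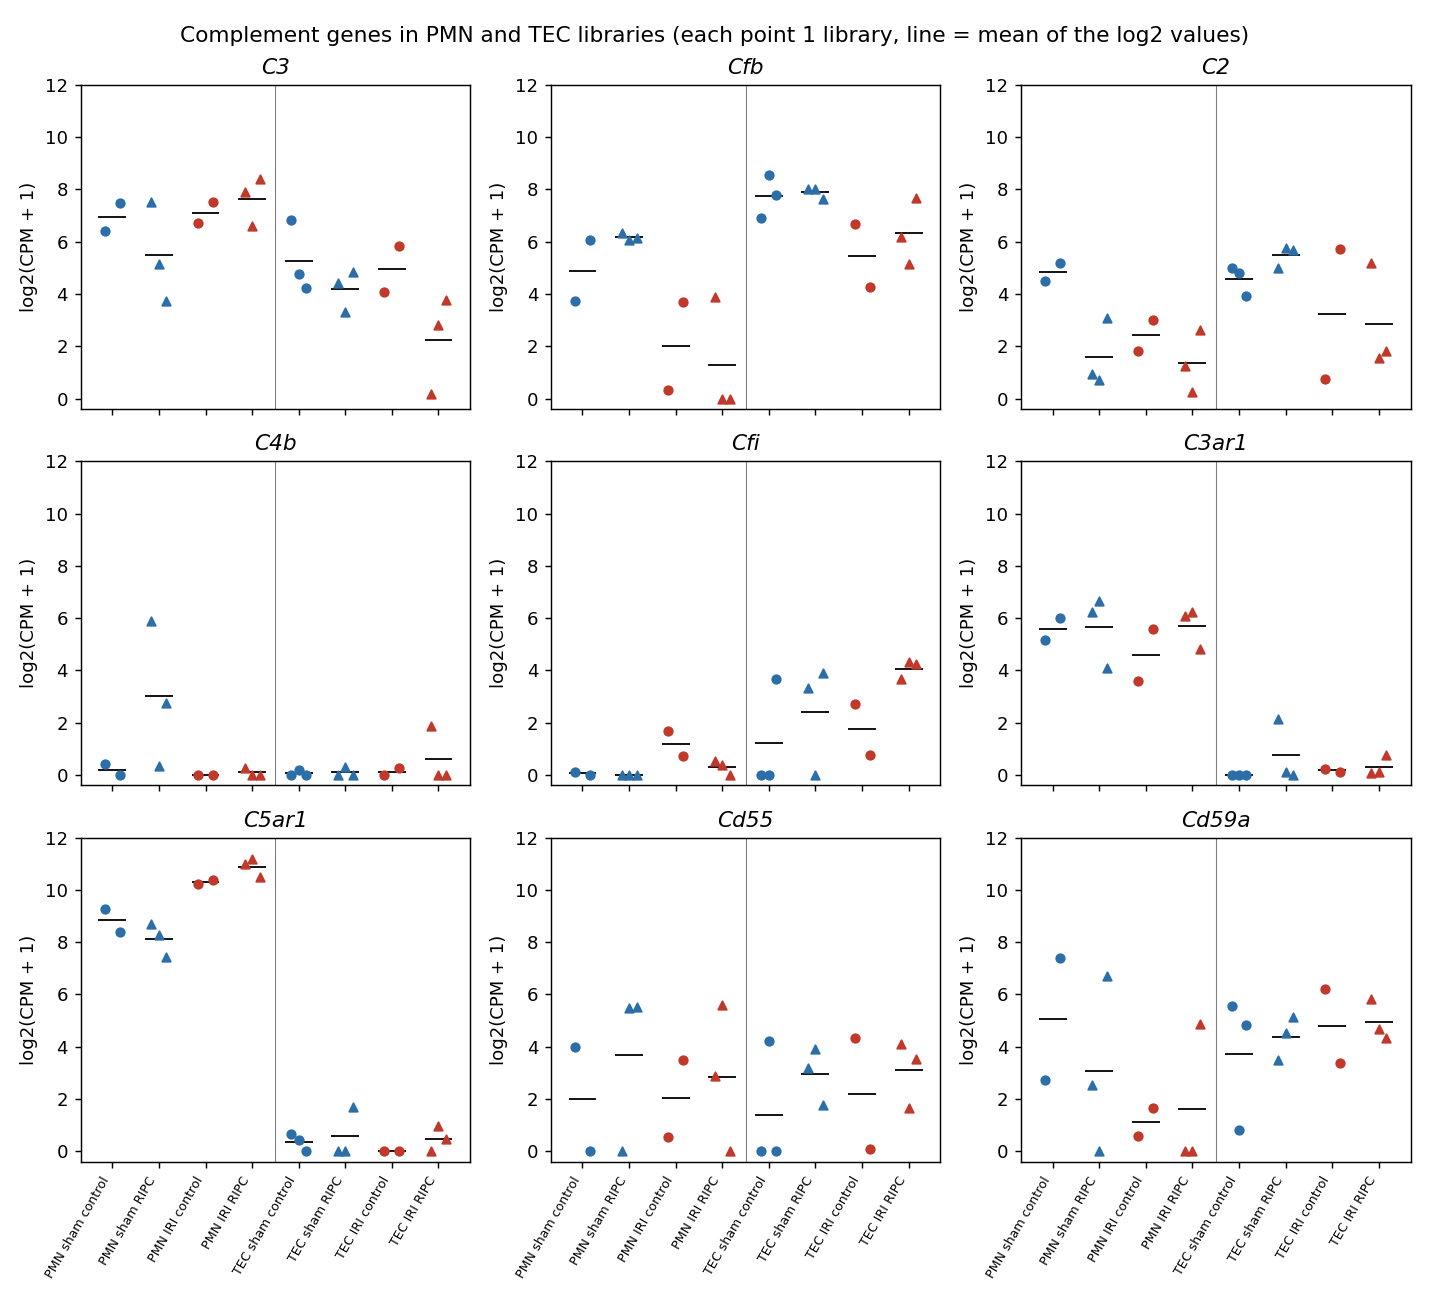
Levels of the 9 complement genes as log2(CPM + 1) in the 8 groups, where each point is 1 library (blue sham, red IRI, circles control, triangles RIPC) and each line the mean of the log2 values. C5ar1 and C3ar1 sit above TECs in all PMN libraries, Cfb is highest in TECs, and Cd55 and Cd59a range from 0 to high values within single groups.

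After IRI, C5ar1 rose in PMNs. Its mean was 1659 ± 486 CPM (SD, n = 5) after IRI against 369.8 ± 165 CPM (SD, n = 5) after sham surgery, a 4.49-fold ratio. Averaged over the RIPC and control groups, the log2 fold change was 2.03 ± 0.31 (SE), with an adjusted p of 0.0374 by edgeR. C5ar1 was the 1 member called of 9, where 0.364% of all genes tested were called as higher, and the 1 member whose IRI and sham libraries did not overlap, which held for 5.51% of all genes. By edgeR 0.416% of all genes were called in either direction, and 3 members (C5ar1, C4b and Cfi) had an unadjusted p under 0.05, as had 11.8% of all genes. DESeq2's Wald test called 2 members, C5ar1 and C4b, and 2047 of all 25002 genes. The call on C5ar1 lay close to the threshold. The adjusted p was 0.0667 with DESeq2's size factors in edgeR, which moved the median of all genes from -0.01 to -0.16 on the log2 scale and C5ar1 to 1.83, and between 0.0176 and 0.108 with single libraries left out, while the log2 fold change stayed between 1.89 and 2.30. The leave-one-out fits lost the call without replicate 2 of the sham control group (adjusted p = 0.0830), replicate 2 of the sham RIPC group (0.0592), replicates 1 and 2 of the IRI control group (0.0665 and 0.0935) and replicates 1, 2 and 3 of the IRI RIPC group (0.105, 0.108 and 0.0767) by edgeR.

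The summed level of the neutrophil markers in PMNs also had a higher median after IRI (29168 CPM) than after sham surgery (9984 CPM), with overlapping ranges. Relative to that sum, a measure chosen after the values were seen, C5ar1 made up 2.0% and 3.40% in the sham control group and 3.52%, 3.09% and 2.64% with RIPC. After IRI it made up 4.86% and 4.47% without RIPC and 6.87%, 5.35% and 6.37% with it. On this scale the IRI libraries also lay above the sham libraries, and the part of the neutrophil share in the rise of C5ar1 was not tested. Tubular and C1q transcripts were at lower levels in the IRI libraries of PMNs, and their part in the result was not tested.

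In the separate arms, the log2 fold change of C5ar1 after IRI was 1.39 ± 0.47 (SE, adjusted p = 0.736 by edgeR) without RIPC and 2.67 ± 0.40 (SE, adjusted p = 0.0424 by edgeR) with RIPC, where 0% and 0.22% of all genes were called as changed and as higher. The call in the RIPC groups was lost in all 6 leave-one-out fits (adjusted p between 0.0723 and 0.167 by edgeR). The difference between the arms was 1.28 ± 0.60 (SE, adjusted p = 0.719 by edgeR) on the log2 scale, so that a difference was not shown. Ordered by mean, C5ar1 was highest in the IRI RIPC group of PMNs (1924 ± 451 CPM, SD, n = 3), followed by the IRI control (1261 ± 96.7 CPM, SD, n = 2), the sham control (478 ± 201 CPM, SD, n = 2) and the sham RIPC group (298 ± 122 CPM, SD, n = 3), and then the TEC groups. The last 2 of these PMN groups overlapped, as did all TEC groups. In TECs the log2 fold change of C5ar1 between IRI and sham surgery (adjusted p = 0.548 by edgeR) rested on 5 of 11 libraries with more than 3 reads. The test of the difference between the IRI effect in PMNs and in TECs gave an adjusted p of 0.325 for C5ar1 by edgeR, and called it without a filter on low counts (6.67e-06 by edgeR).

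Salmon placed the reads of C5ar1 in PMNs on 3 transcripts, 30.7% on C5ar1-201, 60.5% on C5ar1-202 and 8.77% on C5ar1-203. After sham surgery the shares were 36.7%, 55.4% and 7.97%, and after IRI 29.5%, 61.6% and 8.94%. The 109 reads of C5ar1 in TECs were all placed on C5ar1-201.

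**Figure D2:**
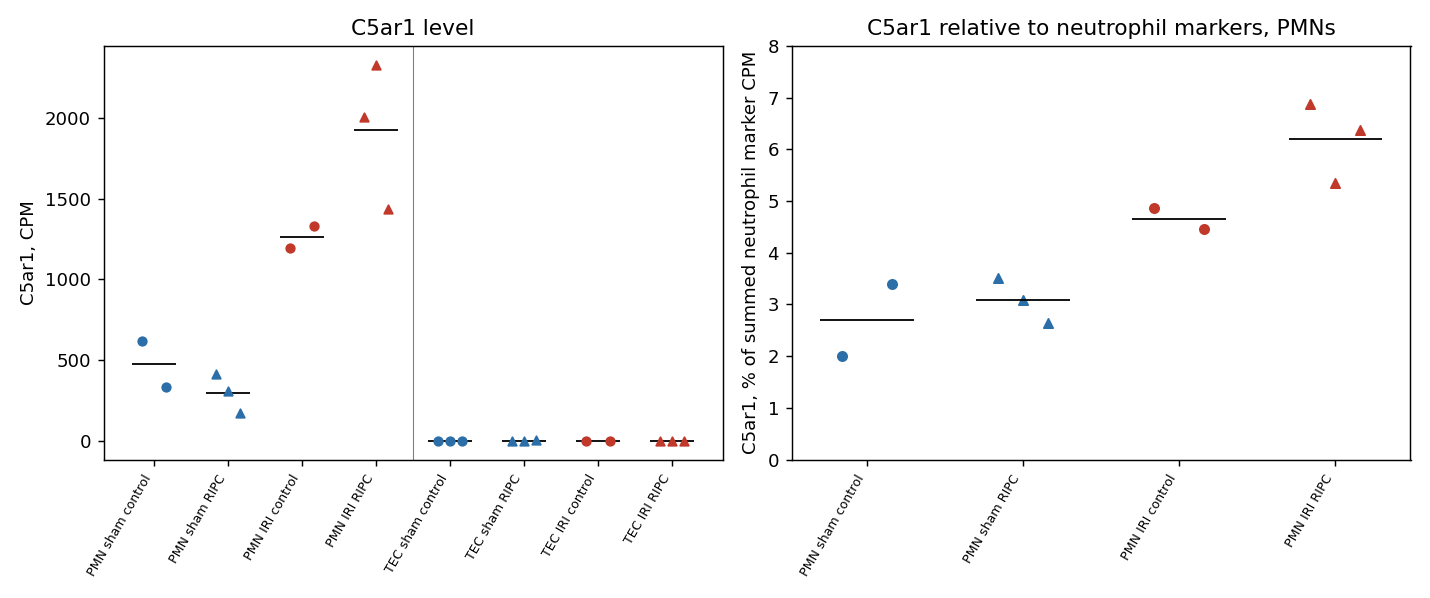
C5ar1 in CPM in the 8 groups (left) and, in PMNs, as a percent of the summed CPM of 12 neutrophil markers (right), with 1 point per library and lines for group means. On both scales the PMN libraries after IRI lie above those after sham surgery, from 1192 CPM and from 4.47% upward.

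C3, the protein on which all pathways meet, was measured in all 21 libraries, although 1 TEC library held 3 reads. In PMNs it stood at 83.5 and 179 CPM in the sham control, 183, 34.8 and 12.4 CPM in the sham RIPC, 105 and 180.4 CPM in the IRI control and 238, 96.9 and 336 CPM in the IRI RIPC group. The TEC values of C3 were 112, 25.8 and 17.6 CPM in the sham control, 20.2, 8.87 and 27.7 CPM in the sham RIPC, 15.9 and 55.5 CPM in the IRI control and 0.115, 6.09 and 12.8 CPM in the IRI RIPC group. After IRI the PMN libraries all lay above the TEC libraries, with means of 192 ± 99.6 CPM (SD, n = 5) and 18.1 ± 21.8 CPM (SD, n = 5). The log2 fold change between PMNs and TECs after IRI was 3.57 ± 1.00 (SE), and its adjusted p of 0.0645 by edgeR missed the threshold, which DESeq2's Wald test passed (0.00201) as did edgeR without a filter on low counts (0.00206) and on the first file alone (0.0476). After sham surgery the cell types overlapped, and the log2 fold change was 1.68 ± 0.85 (SE, adjusted p = 0.306 by edgeR). In this comparison 3 of 9 members, Cfb, C3ar1 and C5ar1, did not overlap between the cell types, where 7.51% of all genes did not. After IRI these 3 and C3 did not overlap, where 6.88% of all genes did not.

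The values of C3 between IRI and sham surgery overlapped in both cell types. Its log2 fold change was 0.82 ± 0.72 (SE, adjusted p = 0.668 by edgeR) in PMNs and -1.08 ± 0.91 (SE, adjusted p = 0.642 by edgeR) in TECs. The difference of the effects was 1.89 ± 1.25 (SE, adjusted p = 0.745 by edgeR), PMNs over TECs. Of the C3 reads, 97.0% in PMNs and 98.3% in TECs were placed on C3-201, a transcript of 5136 bases. Macrophage markers were present in the PMN libraries in which C3 was measured, and their part in its level was not tested.

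Cfb, which encodes factor B, the serine protease of the alternative pathway C3 convertase, was the complement gene with the highest mean over all TEC libraries (43.7 ± 24.7 TPM, SD, n = 11). It ranked above Clu (28.2 ± 42.4 TPM, SD, n = 11), which encodes clusterin, and Cr1l (15.2 ± 7.56 TPM, SD, n = 11), which encodes Crry, a membrane regulator of rodents, though their values overlapped. After sham surgery Cfb averaged 60.7 TPM and Clu 18.9 TPM, whereas after IRI Cfb averaged 23.2 TPM and Clu 39.3 TPM. The Clu mean after IRI included a library at 149.9 TPM. By median, Cfb was above Clu after IRI as well, at 21.6 against 13.8 TPM. In TECs Cfb stood at 119, 372 and 220.0 CPM in the sham control group, 256, 255 and 199.99 CPM with RIPC, 102 and 18.0 CPM in the IRI controls and 71.4, 34.5 and 202 CPM in the IRI RIPC group. Of the 5 IRI libraries, 4 lay below the lowest sham library and 1 lay within the sham range. The log2 fold change of Cfb in TECs between IRI and sham surgery was -1.65 ± 0.56 (SE), with an unadjusted p of 0.0106 and an adjusted p of 0.199 by edgeR. It passed the threshold without a filter on low counts (adjusted p = 0.0300 by edgeR) and without replicate 1 of the TEC IRI control group (log2 fold change -2.50, adjusted p = 0.0357 by edgeR).

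Proximal tubule markers were lower in the same TEC libraries, summing to 10445 to 20197 CPM after sham surgery and 2959 to 9133 CPM after IRI. As a percent of that sum, chosen after the values were seen, Cfb was 1.01% to 1.95% (median 1.76%) in the 6 sham libraries and 2.48% and 0.485% in the IRI control and 2.41%, 0.966% and 2.22% in the IRI RIPC group. On this scale the IRI libraries lay both above and below the sham range. Havcr1 (kidney injury molecule 1), a marker of tubular injury, was at 78.4 to 716 CPM in TECs after IRI and at 0 to 78.9 CPM after sham surgery. The part of either in the Cfb values was not tested.

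In PMNs, Cfb was at 12.2 and 65.5 CPM in the sham control, 80.2, 66.9 and 70.2 CPM in the sham RIPC, 0.256 and 11.9 CPM in the IRI control and 14.0, 0 and 0 CPM in the IRI RIPC group. The ranges after sham surgery and IRI overlapped by 1 library each, and the log2 fold change was -3.32 ± 1.89 (SE, adjusted p = 0.480 by edgeR). All PMN libraries lay below all TEC libraries of the same surgery, with mean ratios of 4.02 after sham surgery and 16.4 after IRI, TECs over PMNs. By edgeR neither was called (adjusted p = 0.361 after sham surgery and 0.185 after IRI), while DESeq2's Wald test called the second (0.0127), as did edgeR without a filter on low counts (0.000487) and without replicate 1 of the PMN IRI RIPC group (0.00103). Proximal tubule markers in PMNs were also lower after IRI, and Cfb amounted to 0.537% to 2.09% of their sum after sham surgery and to between 0% and 2.17% after IRI.

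The transcripts of Cfb differed between the cell types. In TECs 81.8% of 51642 reads were placed on Cfb-202, the 2751-base transcript, which exceeded 3 reads in all 11 libraries. In PMNs Cfb-202 held 23.7% of 6760 reads and exceeded 3 reads in 3 of 10 libraries. The short models Cfb-204 (973 bases) and Cfb-208 (905 bases) held 30.3% and 26.2% of the PMN reads and 9.36% and 6.92% of the TEC reads. These shares were added over libraries and rest on Salmon's assignment of short reads to overlapping models, without a test.

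**Figure D3:**
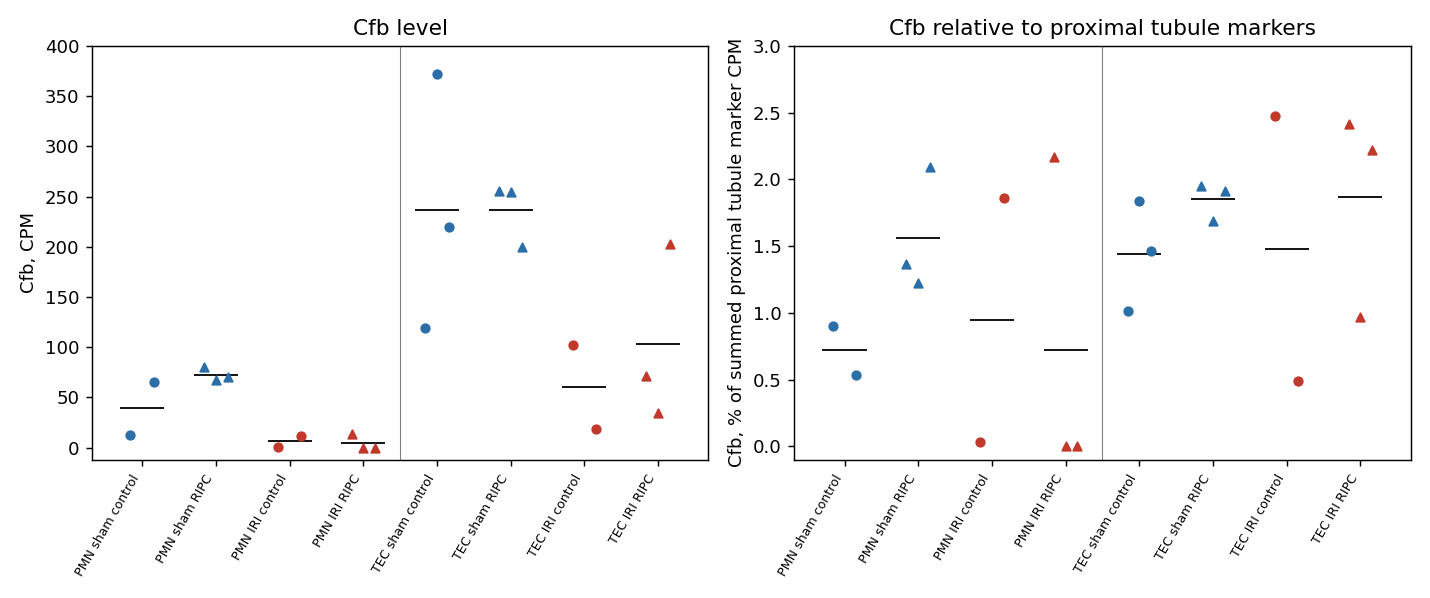
Cfb in CPM (left) and as a percent of the summed CPM of 12 proximal tubule markers (right) in the 8 groups, with 1 point per library and lines for group means. On the left, 4 of the 5 TEC libraries after IRI fall below the 6 after sham surgery, and on the right the IRI libraries spread from 0.485% to 2.48% around the sham range.

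C2, the protease that joins C4b in the classical pathway convertase, was in TECs at 31.1, 27.2 and 14.1 CPM in the sham control and 30.9, 52.8 and 50.9 CPM in the sham RIPC group. After IRI it was at 0.678 and 51.8 CPM in the control and 35.7, 1.90 and 2.49 CPM in the RIPC group. The IRI libraries were thus either within the sham range or far below it, 3 of the 5 being below 3 CPM. Its log2 fold change in TECs was -0.86 ± 0.96 (SE, adjusted p = 0.755 by edgeR). In PMNs, C2 was at 21.8 and 35.0 CPM in the sham control group and between 0.178 and 7.52 CPM in the other 8 libraries. Its log2 fold change between IRI and sham surgery in PMNs was -1.51 ± 1.20 (SE, adjusted p = 0.622 by edgeR). Between PMNs and TECs it was -1.83 ± 1.14 (SE, adjusted p = 0.412 by edgeR) after sham surgery and -2.52 ± 1.21 (SE, adjusted p = 0.346 by edgeR) after IRI. When the reads of C2, Cfb and Gm20547 were added, the sum was lower in PMNs than in TECs after IRI by a log2 fold change of -3.49 ± 0.86 (SE), which passed the threshold (adjusted p = 0.0297 by edgeR).

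C4b, the partner of C2 in that convertase, was at or near 0 in most libraries. It exceeded 3 reads in 4 of 11 TEC libraries, with a highest value of 2.66 CPM, and was left out of the TEC fit by the filter on low counts. In PMNs it exceeded 3 reads in 5 of 10 libraries, and 1 library of the sham RIPC group held 58.7 CPM where the other two held 0.273 and 5.76 CPM. After IRI it was at 0 in 4 of 5 PMN libraries and at 0.204 CPM in the other. The high value was that of 1 library. DESeq2's Wald test called C4b lower after IRI in PMNs (adjusted p = 0.0296) and edgeR did not (0.395). With C4a added the adjusted p by edgeR was 0.548.

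Cfi, which encodes factor I, was found mostly in TECs. It was at 0, 0 and 11.8 CPM in the sham control, 9.11, 0 and 13.8 CPM in the sham RIPC, 5.58 and 0.687 CPM in the IRI control and 11.5, 18.9 and 17.7 CPM in the IRI RIPC group. All 5 TEC libraries after IRI exceeded 3 reads, against 3 of 6 after sham surgery, with a log2 fold change of 0.35 ± 1.67 (SE, unadjusted p = 0.835 by edgeR). In PMNs Cfi had at most 2 reads in every sham library and 0 to 2.18 CPM after IRI. Cfi was therefore at least 29.7-fold higher in the TEC than in the PMN sham control group and at least 51.8-fold higher in the sham RIPC groups, means taken against 3 reads per library. The first bound rests on 1 TEC library with 315 reads, without which neither group exceeded 3 reads, and the second on 2 TEC libraries with 240.0 and 311 reads. By edgeR this was not called after sham surgery (adjusted p = 0.112), while DESeq2's Wald test (4.03e-13) and edgeR without a filter on low counts (0.0180) called it. After IRI the log2 fold change between PMNs and TECs was -3.56 ± 2.09 (SE, adjusted p = 0.463 by edgeR).

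Both membrane regulators varied widely between PMN libraries of a group. Cd55, which encodes decay-accelerating factor, was in PMNs at 14.7 and 0 CPM in the sham control, 0, 44.1 and 44.5 CPM in the sham RIPC, 0.470 and 10.3 CPM in the IRI control and 6.32, 47.5 and 0 CPM in the IRI RIPC group. Its TEC values ranged from 0 to 17.4 CPM after sham surgery and from 0.0458 to 19.3 CPM after IRI. Single PMN libraries without reads stood beside libraries above 44 CPM in the same group. Between IRI and sham surgery its log2 fold change was -0.61 ± 2.18 (SE, unadjusted p = 0.787 by edgeR) in PMNs and 0.40 ± 1.64 (SE, unadjusted p = 0.812 by edgeR) in TECs.

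Cd59a, which encodes the main mouse form of protectin, was in TECs at 45.6, 0.748 and 27.1 CPM in the sham control, 10.2, 22.0 and 34.0 CPM in the sham RIPC, 73.7 and 9.47 CPM in the IRI control and 56.2, 24.6 and 19.3 CPM in the IRI RIPC group. It exceeded 3 reads in all 11 TEC libraries and, at 11.6 ± 9.41 TPM (SD, n = 11), was the second of the members in TECs after Cfb. The log2 fold change between IRI and sham surgery in TECs was 0.65 ± 0.84 (SE, adjusted p = 0.797 by edgeR). In PMNs it was at 5.57 and 167 CPM in the sham control, 4.80, 0 and 102 CPM in the sham RIPC, 0.512 and 2.11 CPM in the IRI control and 0, 0 and 28.3 CPM in the IRI RIPC group. Its 2 highest values were thus in PMN libraries after sham surgery, and the log2 fold change between IRI and sham surgery in PMNs was -3.98 ± 2.52 (SE, adjusted p = 0.527 by edgeR). In the same order of libraries, the proximal tubule markers summed to 1360 and 12209 CPM in the sham control and 5874, 5464 and 3352 CPM in the sham RIPC group. The part of tubular transcripts in the Cd59a values of PMNs was not tested.

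In TECs, 0 of the 8 members tested were called between IRI and sham surgery by edgeR, where 1.4% of all genes were called. An unadjusted p under 0.05 was found for 1 member (Cfb) and for 15.0% of all genes. DESeq2's Wald test called 0 members and 2305 of all 25917 genes. The median log2 fold change of the 8 members was -0.25, and that of all genes 0.15. The IRI and sham libraries of every member tested overlapped, where 4.58% of all genes did not. In PMNs the median over the 9 members was -0.61, against -0.01 for all genes. The test of the difference between the IRI effects in PMNs and TECs called 0 of 9 members and 0% of all genes by edgeR. An unadjusted p under 0.05 was found for 2 members (C4b and C5ar1) and 9.76% of all genes. For this difference DESeq2's Wald test called 1 member, Cfi, and 2493 of all 31769 genes.

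**Figure D4:**
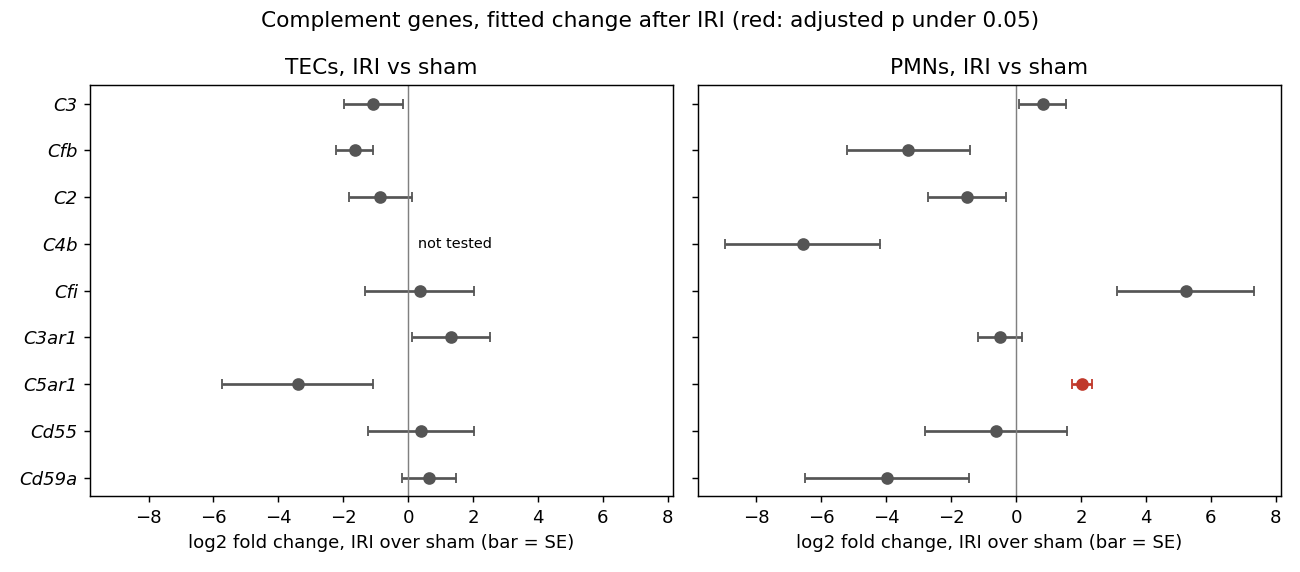
Fitted log2 fold changes of the members after IRI against sham surgery in TECs (left) and PMNs (right), with bars for the SE and red for an adjusted p under 0.05. C5ar1 in PMNs is the 1 red point, at 2.03, with the shortest bar, and 6 of the other 16 bars cross 0.

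RIPC was compared with the control procedure within each surgery and cell type, which is the comparison the study was built for. By edgeR 0 members were called in any of the 4 comparisons or in the interaction of RIPC and surgery in either cell type, where 0.004% of all genes were called in PMNs after sham surgery, 0.00386% in TECs after IRI and 0% in the others. DESeq2's Wald test also called 0 members in these 6 tests. Of 25917 genes in TECs it called 451 after sham surgery, 717 after IRI and 634 in the interaction. Of 25002 genes in PMNs it called 827, 437 and 673 in the same order. An unadjusted p under 0.05 by edgeR was found for 1 member, C3ar1 in TECs after sham surgery, which rests on 1 library with 89 reads. Of all genes, 4.53% and 4.35% had such a p in TECs after sham surgery and IRI, 4.6% and 2.72% in PMNs, and 7.21% and 5.74% in the interactions of TECs and PMNs. In PMNs after IRI, the RIPC libraries of C5ar1 all lay above the control libraries, with a log2 fold change of 0.57 ± 0.43 (SE, adjusted p = 0.941 by edgeR). After sham surgery the direction was the other way, at -0.71 ± 0.42 (SE, adjusted p = 0.705 by edgeR). C3 in TECs after IRI was lower in all 3 RIPC libraries than in both control libraries, by a log2 fold change of -2.48 ± 1.32 (SE, adjusted p = 0.778 by edgeR), and its lowest library held 3 reads.

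Groups that did not overlap between RIPC and control were found for 2 of 9 members in PMNs after sham surgery (Cfb higher, C2 lower), for 2 of 9 in PMNs after IRI (C5ar1 higher, Cfi lower), for 0 of 8 in TECs after sham surgery and for 2 of 8 in TECs after IRI (Cfi higher, C3 lower). Among all genes tested, the corresponding shares were 12.8%, 16.5%, 7.85% and 16.6%. The members were thus close to the background in each comparison. The log2 fold change of Cfb in TECs after sham surgery was -0.04 ± 0.71 (SE) between RIPC and control.

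The other complement genes gave the setting of the members. Of 44 listed, 34 were tested in TECs and 35 in PMNs, and 0 were called between IRI and sham surgery in either by edgeR, with 3 in TECs and 6 in PMNs at an unadjusted p under 0.05 and 3 and 5 called by DESeq2's Wald test. Over all genes 15.0% in TECs and 11.8% in PMNs had such a p. DESeq2's Wald test called 2305 of all 25917 genes in TECs and 2047 of all 25002 in PMNs. Between PMNs and TECs, 38 were tested, of which 7 were higher in PMNs after sham surgery and 4 after IRI, where 1.49% of all genes were called as higher under either surgery, and 0 were lower. After sham surgery they included the C1q chains C1qa, C1qb and C1qc and the integrins Itgam, Itgb2 and Itgax of the complement receptors CR3 and CR4. After IRI they were C1qa, C1qc, Itgam and Itgb2.

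Itgam, the CR3 chain that binds the C3 fragment iC3b, was between 569 and 1374 CPM in PMNs after IRI and between 0.287 and 325 CPM after sham surgery, and at most 2.70 CPM in TECs. The highest complement genes in PMNs per length were C1qb (828 ± 694 TPM, SD, n = 10), C1qa (709 ± 673 TPM, SD, n = 10) and C1qc (376 ± 425 TPM, SD, n = 10), above C5ar1 over both surgeries together. After IRI alone C5ar1 had the higher mean, 517 TPM against 250.5 TPM for C1qb, 192 TPM for C1qa and 71.5 TPM for C1qc. The C1q chains are products of macrophages.

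Of the members, the order per length in PMNs was C5ar1 (317 TPM), C3 (20.6 TPM), Cfb (15.5 TPM), Cd59a (11.6 TPM), C3ar1 (5.81 TPM), C2 (3.51 TPM), Cd55 (3.45 TPM), C4b (1.30 TPM) and Cfi (0.219 TPM). In TECs it was Cfb (43.7 TPM), Cd59a (11.6 TPM), C2 (6.04 TPM), C3 (2.77 TPM), Cfi (2.23 TPM), Cd55 (1.38 TPM), C5ar1 (0.0837 TPM), C4b (0.0559 TPM) and C3ar1 (0.0381 TPM). In both orders the ranges of every pair of neighbours overlapped. Within a surgery, however, C5ar1 lay above C3 in every PMN library. After sham surgery the lowest C5ar1 was 46.2 TPM and the highest C3 32.1 TPM, and after IRI they were 396 and 53.0 TPM. These orders are over both surgeries together. C3 and Cfb, the pair of the alternative pathway convertase, changed places in PMNs by mean TPM only, with means of 15.3 TPM for C3 and 27.7 TPM for Cfb after sham surgery and of 25.8 TPM for C3 and 3.33 TPM for Cfb after IRI. After sham surgery their ranges overlapped, at 1.26 to 32.1 TPM for C3 and 9.69 to 44.5 TPM for Cfb. By CPM, which is not scaled to length, C3 had the higher mean after sham surgery too, at 98.5 against 59.0 CPM. In TECs the mean of Cfb was above that of C3 under either surgery.

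The genes whose levels followed a member most closely across libraries were named by the Pearson r of log2(CPM + 1) within the cell type where the member was higher. For Cfb over the 11 TEC libraries and 11612 genes they were Slc7a7 (r = 0.990), a basolateral amino acid transporter subunit of the proximal tubule, Sult1c2 (r = 0.988) and Galnt3 (r = 0.977). For C5ar1 over the 10 PMN libraries and 11920 genes they were Arpc1b (r = 0.988) and Coro1a (r = 0.986), actin regulators of leukocytes, and Hmox1 (r = 0.980), heme oxygenase 1. For C3ar1 they were Slc15a4 (r = 0.941), Ifitm3 (r = 0.928) and Eif1ad (r = 0.926), and for C3 Pmpca (r = 0.978), Usp19 (r = 0.961) and Copg1 (r = 0.944). The closest gene to C2 was Ankrd27 (r = 0.912), to Cfi Igsf9b (r = 0.951) and to Cd59a Col4a2 (r = 0.933) in TECs, and to Cd55 Heatr5a (r = 0.945) and to C4b Lzts3 (r = 0.962) in PMNs. The libraries share surgery and cell makeup, and the best of so many genes is high by selection, so that these values are a description.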

How the data were processed

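The deposited values are Salmon's estimated counts (not normalized), TPM values and effective lengths per transcript, made by the authors from trimmed single-end reads (Trim Galore 0.6.4, Salmon 1.0.0, per the labels) with the Gencode mouse transcriptome. Each library had 2 files, whose difference is not stated. Their estimated counts were added (the files differed by 0.167% to 0.492% in total), totalled by gene and rounded, and TPM values were averaged over files and summed over transcripts. Gencode M21 matched 139864 transcripts, and unmatched ones held 0.139% to 0.255% of reads.

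Genes of the sex chromosomes and mitochondria were left out, as in the methods of the study. edgeR 4.0.16 (R 4.3.3, limma 3.58.1) fitted 25917 genes in TECs, 25002 in PMNs and 31769 in both, with filterByExpr, TMM and 1 mean per group. DESeq2 1.42.0 was an alternative. The SE is the log2 fold change divided by the square root of F. Fits were also run on simulated counts, in which most of the genes set to change were not called. A member that was not called may thus still have changed. In the simulated TEC counts some of the called genes had not been set to change, so that a call may also be false. Members and gene lists were chosen with earlier results of these data known. Named beside the 9 members were complement genes called in a comparison, relatives and overlapping genes, the 3 highest complement genes per cell type, and the 3 genes most like each member among those with a mean of at least 5 CPM. A complement gene that met this rule is not reported here. Other alternatives were no filter, at least 10 counts in every library, each file alone, a length offset, robust dispersion, a replicate block, sex-linked genes included, each library left out, each arm alone and relatives added.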

Additional observations from a re-analysis of the deposited data

How the results depend on the processing

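Most counts of called members stayed within 1.5 times their value. In PMNs, IRI against sham surgery, where 1 was called, DESeq2's size factors and the control groups alone gave 0, DESeq2's Wald test 2, and leave-one-out fits between 0 and 1. The replicate block gave 0 in that comparison (C5ar1 adjusted p = 0.0563 by edgeR) and changed no other count. Within a cell type, deviations from group means correlated at -0.03 to 0.05 between same-numbered libraries in PMNs and at -0.14 to 0.18 in TECs. Between other libraries the values were -0.05 to 0.04 and -0.16 to 0.11. In groups of 2 libraries the deviations mirror each other, which fixes part of these values. Whether PMN and TEC libraries came from the same animals was not checked, and the tests between cell types treated them as independent. In TECs, IRI against sham surgery, no filter gave 1 (and 1289 of all 39528 genes) and leave-one-out 0 to 1. Between PMNs and TECs after IRI, where 2 were called, no filter and DESeq2's Wald test gave 4 each and leave-one-out 1 to 3. For the difference of the IRI effects no filter and DESeq2's Wald test gave 1 each. Over all genes these settings also called more. After IRI they called 1763 of 43623 genes without a filter and 3836 of 31769 by DESeq2's Wald test, against 847 by edgeR. For the difference they called 722 and 2493 genes, against 0 by edgeR. With at least 10 counts in every library, no member was tested in the fit of both cell types. The cause of these changes was not tested.

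Directions turned as follows, none of these values being called. In TECs between IRI and sham surgery, C2 was 0.081 and Cfi -0.36 in the control groups, and C3ar1 -2.08 in the RIPC groups. The replicate block gave -1.62 for Cd55 between PMNs and TECs after IRI, and for RIPC against control -1.98 for C5ar1 and 0.66 for Cd59a in TECs after sham surgery, 0.80 for Cd55 and 0.15 for Cd59a in TECs after IRI, -0.25 for Cd55 in PMNs after sham surgery and -5.27 for Cd59a in PMNs after IRI. The length offset gave 0.076, -0.0028 and -0.049 for Cfb under RIPC in TECs after sham surgery, TECs after IRI and PMNs after sham surgery, the first file alone 0.0057 for Cd55 under RIPC in TECs after IRI, and C4a added 1.37 for C4b between PMNs and TECs after IRI.

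With single libraries left out, the log2 fold change turned between IRI and sham surgery in TECs for Cfi (-0.72 to 5.18), C5ar1 (-4.05 to 0.24), Cd55 (-3.38 to 5.53) and Cd59a (-0.40 to 1.08), and in PMNs for Cd55 (-2.33 to 4.62). Between PMNs and TECs it turned after sham surgery for Cd55 (-4.28 to 6.14) and Cd59a (-0.76 to 1.66), and after IRI for C2 (-3.29 to 0.10) and Cd55 (-1.75 to 3.80). Under RIPC it turned in TECs after sham surgery for Cfb (-0.45 to 0.49), C5ar1 (-6.07 to 1.87), Cd55 (-0.30 to 10.65) and Cd59a (-0.71 to 0.68), in TECs after IRI for Cfb (-0.14 to 2.49), C2 (-3.56 to 4.27), Cd55 (-1.01 to 7.53) and Cd59a (-1.12 to 1.80), in PMNs after sham surgery for C3ar1 (-0.13 to 0.86) and Cd59a (-5.20 to 2.68), and in PMNs after IRI for Cfb (-10.11 to 4.16), Cd55 (-0.75 to 5.20) and Cd59a (-7.89 to 4.17).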

Other observations

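Cfp, which encodes properdin, the positive regulator that stabilizes the alternative pathway convertase, is X-linked and was outside the tests. It was chosen after its values were seen. It had 330.0 to 8515 reads in PMNs after sham surgery (median 2136) and 7672 to 17000 reads after IRI (median 10966), at 56.6 ± 57.2 TPM (SD, n = 5) and 186 ± 46.1 TPM (SD, n = 5). In TECs it had no more than 296 reads after sham surgery and no more than 2 after IRI. The PMN ranges of both surgeries overlapped in reads.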
